A study of Mus musculus with 6 samples.

Results

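The activin signalling genes described here are 10 of the 23420 genes in a raw-count table of mouse neocortex transcripts: the receptors Acvr1c, Acvr1b, Acvr2a and Acvr2b, the ligand subunits Inhba and Inhbb, the follistatins Fst and Fstl3, and the signal carriers Smad2 and Smad3. They were matched by symbol, and all 10 were in the table and passed the filter on low counts. The set was chosen by function around Acvr1c, which was picked because its measured level was higher in mutant libraries. The difference of Acvr1c between genotypes is therefore given as a description, with no test. The other 9 genes were named for their place in the pathway, although earlier results of these data were known when they were listed.

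The groups were 3 libraries labelled Tshz3 mutant and 3 labelled wild type, all from neocortex at embryonic day 18.5. Each library came from its own pool of 3 to 4 embryos from several litters. The labels give the mutant group's genotype by that name alone, with "KO" in its library titles, and do not state the allele, zygosity or strain, or the sex of the embryos. Tshz3 encodes a zinc finger transcription factor, and the comparison asks which transcripts differ when it is mutated.

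Activins are secreted dimers of inhibin beta subunits and belong to the TGF-beta superfamily. A dimer binds a type II receptor (Acvr2a or Acvr2b), which recruits and phosphorylates a type I receptor (Acvr1b, also called ALK4, or Acvr1c, called ALK7), and the type I receptor phosphorylates Smad2 and Smad3, which enter the nucleus with Smad4. Follistatins hold activin outside the cell and keep it from its receptors. In the brain, activin signalling is known for effects on synapses and neuronal survival, and Inhba is known as a gene that neuronal activity induces.

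The wider data set bears on these genes in a few ways. Total counts ran from 18569383 to 24147810 per library. Tshz3 itself was at 89.8, 93.1 and 99.2 CPM (reads of a gene relative to its library's scaled total) in mutant libraries 1, 2 and 3, against 78.7, 83.0 and 89.3 CPM in wild-type libraries 1, 2 and 3, with a log2 fold change of 0.17 (SE 0.07) that did not pass the test (edgeR adjusted p = 0.669). All 3 mutant libraries lay above all 3 wild-type libraries, by 89.8 against 89.3 CPM at the nearest. As the labels do not say which part of the gene is altered, its transcript level does not check the genotype labels. Mutant and wild-type libraries that share a number shared part of their deviation from the mean of their own genotype (correlations across genes of 0.61, 0.51 and 0.47 for numbers 1, 2 and 3), so each result was also fitted with the library number as a block. With the block, Tshz3 was higher in mutant libraries by 0.17 (SE 0.04) on the log2 scale, just short of the threshold of 0.05 (edgeR adjusted p = 0.0525). Summed levels of 11 marker lists for cell types of neocortex and adjoining tissue overlapped between genotypes. The blood sum rested on 4 genes, 3 of them under 1 CPM in every library. Projection neuron markers, which identify the labelled tissue, summed to between 2061 and 2270 CPM in mutant libraries and between 1883 and 2135 CPM in wild type, and 7 of 7 were detected. Library 1 stood apart in both genotypes by choroid plexus markers, which summed to 813, 190 and 150 CPM in mutant libraries 1, 2 and 3 and to 827, 122 and 229 CPM in wild-type libraries 1, 2 and 3.

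On the GRCm38 assembly, Acvr1c is annotated on chromosome 2 from 58267453 to 58357895 on the minus strand, next to Acvr1, which encodes a related type I receptor and lies 30748 bases away. Inhbb lies on chromosome 1 from 119415465 to 119422248 on the minus strand, and Acvr1b on chromosome 15 from 101174067 to 101213684 on the plus strand. Acvr2a is on chromosome 2 from 48814109 to 48903269, Acvr2b on chromosome 9 from 119402118 to 119434995 and Inhba on chromosome 13 from 16011851 to 16031621, all on the plus strand. Fst is on chromosome 13 from 114452290 to 114458951 on the minus strand, and Fstl3 on chromosome 10 from 79777272 to 79782630 on the plus strand. Smad2 is on chromosome 18 from 76241580 to 76310963 on the plus strand, and Smad3 on chromosome 9 from 63646767 to 63757994 on the minus strand. Each count is given for 1 gene symbol, and the exons it covers are not stated in the sources used here. The antisense gene Gm13544 shares 168 exon bases with Acvr1c but had 13 reads or fewer in every library, while Acvr1c had 54 or more. The antisense gene Gm47040 shares 115 exon bases with Fst. Prss57 shares 1157 exon bases with Fstl3 on the opposite strand and Orc4 shares 446 with Acvr2a, so the counts of Fst, Fstl3 and Acvr2a are uncertain to that extent, the strand setting of the counting not being given in the sources used here.

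The bases just before the annotated starts of Acvr1c, Inhbb and Acvr1b are shown because in these 3 genes every mutant library lay above every wild-type library and a promoter window was at hand. They come from RefSeq windows on GRCm38.p6, cut to end before the start of the gene, and are read 5′ to 3′ on the gene's own strand. They cover chr2:58357896-58358008 (minus strand) for Acvr1c, chr1:119422249-119422498 (minus strand) for Inhbb and chr15:101173822-101174066 (plus strand) for Acvr1b. Capitals mark GGCGC on either strand, a short GC-rich sequence that Smad proteins can bind.

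Acvr1c: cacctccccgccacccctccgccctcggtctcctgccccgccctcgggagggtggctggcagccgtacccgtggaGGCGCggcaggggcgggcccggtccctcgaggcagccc

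Inhbb: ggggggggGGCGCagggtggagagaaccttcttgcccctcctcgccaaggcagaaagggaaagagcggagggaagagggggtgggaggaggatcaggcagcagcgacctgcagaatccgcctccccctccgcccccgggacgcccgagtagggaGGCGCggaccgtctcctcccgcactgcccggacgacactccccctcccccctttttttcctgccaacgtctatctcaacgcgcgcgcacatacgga

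Acvr1b: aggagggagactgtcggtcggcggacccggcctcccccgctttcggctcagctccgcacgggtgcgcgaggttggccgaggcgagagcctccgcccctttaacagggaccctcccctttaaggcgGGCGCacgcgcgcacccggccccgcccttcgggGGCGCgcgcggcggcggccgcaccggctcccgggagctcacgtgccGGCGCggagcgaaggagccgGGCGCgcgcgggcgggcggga

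The letters GGCGC occurred 1 time before Acvr1c, 2 times before Inhbb and 4 times before Acvr1b. Of the 32851 windows in the same table, 14.8% held GGCGC in their first 113 bases, the length shown for Acvr1c. For the lengths shown for Inhbb and Acvr1b, 32.0% and 31.4% held it in their first 250 and 245 bases. The first 113 bases of a window lie farther from its RefSeq start than the Acvr1c bases lie from the annotated start used here. The windows shown were 80.5%, 68% and 78.8% G or C, against medians of 50.4%, 52.4% and 52.2% over those same first bases of all windows. The Smad-binding letters CAGAC, and their 8-letter form GTCTAGAC, were searched on both strands and were in none of the 3 windows. CAGAC was in 42.2% and GTCTAGAC in 0.167% of all windows of 250 bases. None of the 3 motifs contains another.

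Acvr1c, the less abundant type I receptor, was at 6.83, 7.51 and 6.55 CPM in mutant libraries 1, 2 and 3, against 3.22, 4.83 and 2.94 CPM in wild-type libraries 1, 2 and 3. All 3 mutant libraries lay above all 3 wild-type libraries, and wild type 2 was the nearest to them. The reads behind these levels numbered 145, 180 and 130 in mutant libraries, against 68, 100 and 54 in wild type. Mutant libraries averaged 6.96 ± 0.492 CPM and wild-type libraries 3.66 ± 1.02 CPM (SD, n = 3 each), a 1.90-fold difference, or 0.92 on the log2 scale with a standard error of 0.21. Compared between libraries of the same number, the log2 ratio of mutant over wild type was 1.06, 0.63 and 1.13 for numbers 1, 2 and 3. These are the values for which Acvr1c was picked. Without wild type 2 the log2 difference was 1.17.

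Acvr1b, the abundant type I receptor, was at 133, 131 and 127 CPM in mutant libraries, against 115, 125 and 121 CPM in wild-type libraries. The groups did not overlap, but mutant 3 and wild type 2 were only 126.9 and 124.5 CPM. The log2 fold change was 0.12 (SE 0.05) and did not pass, with an edgeR adjusted p of 0.745 without the block and 0.178 with it. Acvr1c reads came to 5.16%, 5.71% and 5.16% of the number of Acvr1b reads in mutant libraries, against 2.80%, 3.88% and 2.43% in wild-type libraries. Scaled to exon length, Acvr1c made up 2.39% to 2.64% of the summed level of the 2 type I receptors in mutant libraries and 1.14% to 1.81% in wild type. The level of this pair of receptors was thus mostly Acvr1b in both genotypes. Acvr1, the neighbour of Acvr1c, was at 79.0, 81.5 and 77.5 CPM in mutant libraries and 67.9, 90.6 and 74.9 CPM in wild-type libraries, with a log2 fold change of 0.03 (SE 0.10). On the other side of Acvr1c, Cytip had 0 to 5 reads in mutant libraries and 1 to 8 in wild type, too few to test.

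**Figure D1:**
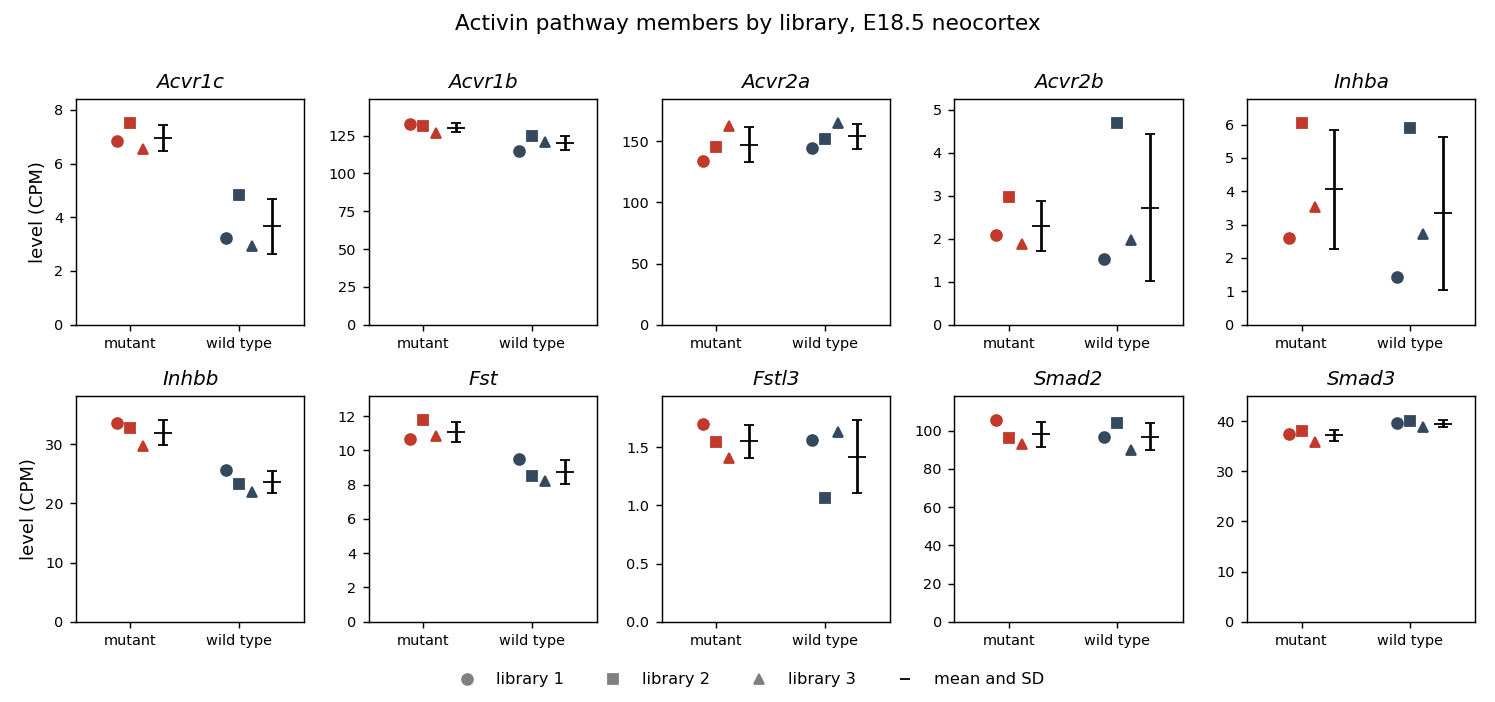
Level of each of the 10 activin signalling genes in CPM, by library; circles, squares and triangles are libraries 1, 2 and 3, and the bar is the mean with its SD over 3 libraries. Acvr1c, Acvr1b, Inhbb and Fst show every mutant library above every wild-type library, Smad3 the reverse, and Inhba is highest in library 2 of both genotypes.

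The type II receptors showed no difference past the threshold. Acvr2a was at 134, 146 and 162 CPM in mutant libraries and 145, 152 and 165 CPM in wild-type libraries. Each mutant library was below the wild-type library of its number, but the groups overlapped, with a log2 fold change of −0.07 (95% interval −0.26 to 0.13, edgeR adjusted p = 0.944). Acvr2b was at 2.07, 2.96 and 1.86 CPM in mutant libraries and 1.52, 4.69 and 1.96 CPM in wild-type libraries, so library 2 was the highest in each genotype. Its log2 fold change of −0.24 had a 95% interval from −1.26 to 0.78 (edgeR adjusted p = 0.965), and the sign turned to 0.41 without wild type 2. That interval holds differences in either direction.

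Among the ligand subunits, Inhbb passed the test with the block and Inhba in neither fit. Inhbb, whose product forms activin B as a dimer and inhibin B with the alpha subunit, was at 33.5, 32.7 and 29.6 CPM in mutant libraries, against 25.7, 23.3 and 22.0 CPM in wild-type libraries. The groups did not overlap, the lowest mutant library being above the highest wild-type library. Means were 32.0 ± 2.06 CPM in mutant and 23.7 ± 1.88 CPM in wild type (SD, n = 3 each), a 1.35-fold difference. The log2 fold change was 0.43 (SE 0.09), with an edgeR adjusted p of 0.232 without the block. With the block Inhbb rose by 0.43 (SE 0.07, edgeR adjusted p = 0.0032), and DESeq2 without the block also called it (adjusted p = 0.0205). The blocked call was lost without library pair 3 (adjusted p = 0.103) and held without pair 1 or pair 2. A blocked fit without 1 pair has only 1 residual degree of freedom, so its calls are uncertain. Without pair 2 it called 1119 of all tested genes higher. The log2 difference of Inhbb stayed between 0.38 and 0.49 in all 18 alternative analyses. The log2 ratios for pairs 1, 2 and 3 were 0.38, 0.49 and 0.43. Inha, which encodes the inhibin alpha subunit, was at 55.3, 54.0 and 56.9 CPM in mutant libraries and 59.9, 47.3 and 57.2 CPM in wild type, with a log2 fold change of 0.02 (SE 0.09). Inhbb reads were accordingly 52.0% to 60.7% of the number of Inha reads in mutant libraries and 38.5% to 49.2% in wild-type libraries.

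Inhba, the activin A subunit gene, was at 2.59, 6.05 and 3.53 CPM in mutant libraries and 1.42, 5.89 and 2.72 CPM in wild-type libraries. Library 2 was far the highest in both genotypes, and the spread between numbers was larger than the difference between genotypes. The log2 fold change was 0.28 with a 95% interval from −0.99 to 1.55 (edgeR adjusted p = 0.967), and 0.33 (SE 0.18, adjusted p = 0.359) with the block. Each mutant library was above the wild-type library of its number, with log2 ratios of 0.82, 0.04 and 0.36. The sign turned without mutant 2 or without wild type 1. Bmpr2, a type II receptor for bone morphogenetic proteins, was likewise highest in library 2, at 11.3 CPM in mutant 2 and 16.9 CPM in wild type 2 against 4.36 to 5.24 CPM in the other 4 libraries. What sets library 2 apart was not tested.

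**Figure D2:**
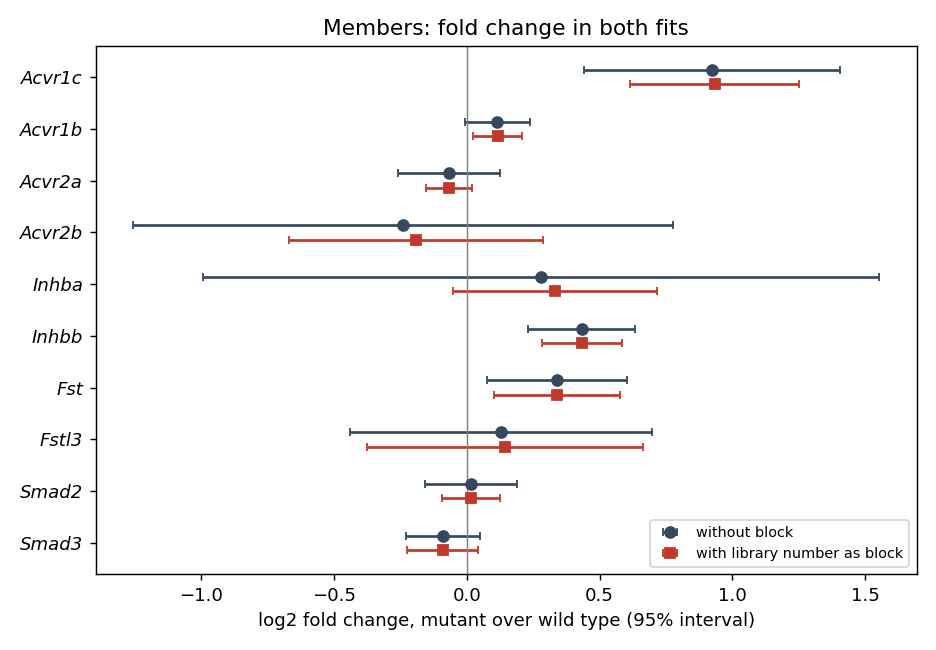
Log2 fold change of each gene, mutant over wild type, with its 95% interval, not adjusted for the number of genes tested. Circles are the fit without the block and squares the fit with the library number as a block. Acvr1c was picked for its difference, so its intervals are a description and no test. Apart from Acvr1c, the intervals of Inhbb (0.23 to 0.64 without the block) and Fst (0.08 to 0.60) lie above 0 in both fits. That of Acvr1b does so with the block only. Of these genes only Inhbb passed the adjusted edgeR test, and only with the block. The intervals of Acvr2b and Inhba are the widest without the block and narrow with it.

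The follistatins bind and neutralise activins. Fst was at 10.7, 11.8 and 10.8 CPM in mutant libraries, against 9.53, 8.50 and 8.22 CPM in wild-type libraries. Every mutant library was above every wild-type library. Means were 11.1 ± 0.595 and 8.75 ± 0.690 CPM (SD, n = 3 each) in mutant and wild type, and the log2 fold change of 0.34 (SE 0.11) did not pass in either fit (edgeR adjusted p = 0.537 without the block, 0.116 with it). Fst reads came to 31.8% to 36.6% of the number of Inhbb reads in mutant libraries and 36.5% to 37.4% in wild-type libraries. Fstl3 had 28 to 37 reads per mutant library and 22 to 33 per wild-type library. Its levels of 1.70, 1.54 and 1.41 CPM in mutant libraries and 1.56, 1.06 and 1.63 CPM in wild-type libraries overlapped (log2 fold change 0.13, 95% interval −0.44 to 0.70), and the sign turned without wild type 2.

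Neither of the Smads that carry the activin signal passed the test. Smad2 was at 105, 96.1 and 93.0 CPM in mutant libraries and 96.5, 104 and 90.04 CPM in wild-type libraries, with full overlap. Its log2 fold change of 0.02 had a 95% interval from −0.16 to 0.19, and its sign turned without mutant 1 or wild type 3. Smad3 was at 37.4, 38.03 and 35.9 CPM in mutant libraries, against 39.6, 40.1 and 38.8 CPM in wild-type libraries. All 3 mutant libraries were lower, but by little: the log2 fold change was −0.09 (SE 0.06, 95% interval −0.23 to 0.05) and did not pass (edgeR adjusted p = 0.833 without the block, 0.493 with it).

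Leaving out Acvr1c, which was picked from this contrast and enters no count here, 3 of the other 9 genes (Acvr1b, Inhbb and Fst) had every mutant library above every wild-type library, where 7.42% of all 14618 tested genes did. Smad3 had every mutant library below, where 6.09% did. Without the block 0 of the 9 passed an edgeR adjusted p of 0.05 in either direction, against a background of 0.0479% of tested genes called higher and 0.0274% called lower. At an unadjusted p under 0.05 there were 2 of the 9, Inhbb and Fst, and 1037 of all 14618. With the block 1 of the 9, Inhbb, was called higher and 0 lower, against 1.97% and 1.49% of tested genes, and DESeq2 also called Inhbb alone of the 9. The median log2 fold change of the 10, this time with Acvr1c included, was 0.12, and that of all tested genes −0.01. As Acvr1c was picked for its rise, that median is a description and no test of the set. In a bulk sample, more cells of a type that expresses a gene and more RNA of that gene per cell cannot be told apart.

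Among the projection neuron markers, Fezf2 rose by 0.40 (SE 0.04) and Bcl11b by 0.15 (SE 0.04) on the log2 scale in the blocked fit, as Inhbb did, with edgeR adjusted p of 0.000158 and 0.0478. Of the 9 interneuron markers, Npy fell by 0.41 (SE 0.05, edgeR adjusted p = 0.000409) with the block. None of these 3 genes passed without it. Without the block, 6 of the 7 projection neuron markers had positive log2 fold changes and 1, Slc17a7, a negative one (−0.13), with a list median of 0.08. Of those 6, Neurod2 and Tbr1 were close to 0, at 0.004 and 0.02. Among all 14618 tested genes, 6978 had positive log2 fold changes. Of the interneuron markers 3 were positive and 6 negative, with a median of −0.05, and 8 of the 9 did not pass with the block. In the lists for meninges, endothelium, pericytes, microglia, blood, choroid plexus, striatum, hippocampus and astroglia, 0 markers passed in either fit. Of the 6 blood markers only 1, Alas2, had enough reads to be tested, so that list says little. All 7 meningeal markers nonetheless had negative log2 fold changes, with a median of −0.51, and summed to 238, 84.6 and 56.4 CPM in mutant libraries 1, 2 and 3 and to 297, 195 and 44.1 CPM in wild-type libraries 1, 2 and 3. The part of any of these cell types in the differences of Acvr1c and Inhbb was not tested.

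Levels were compared between genes after division by annotated exon length. Acvr1b and Acvr2a were the most abundant, at 29.5 ± 0.682 and 25.9 ± 2.50 CPM per kilobase in mutant and 27.2 ± 1.07 and 27.1 ± 1.78 CPM per kilobase in wild type (SD, n = 3 each). In wild type their ranges overlapped, and in mutant libraries they came close, with 28.7 CPM per kilobase as the lowest Acvr1b level and 28.5 as the highest Acvr2a level. Smad2 followed at 11.2 ± 0.742 CPM per kilobase in mutant and 11.04 ± 0.815 in wild type. Inhbb and Smad3 came next and changed places: Inhbb was at 6.96 to 7.88 CPM per kilobase and Smad3 at 6.48 to 6.86 in mutant libraries, while Inhbb was at 5.17 to 6.04 and Smad3 at 7.004 to 7.23 in wild-type libraries. Fst was at 2.41 ± 0.130 CPM per kilobase in mutant and 1.91 ± 0.1503 in wild type. Acvr1c, Inhba, Fstl3 and Acvr2b were the lowest, with means of 0.585 to 0.749 CPM per kilobase in mutant and 0.394 to 0.693 in wild type. Their ranges overlapped between neighbours in the order. With the longest transcript as the length, their order by mean changed in mutant and stayed the same in wild type. On that length the ranges of Inhbb and Smad3 overlapped in mutant libraries, at 6.96 to 7.88 and 7.05 to 7.47 CPM per kilobase, while those in wild type stayed apart. Within the 10 genes, Inhbb was thus above Inhba, Acvr1b above Acvr1c, Acvr2a above Acvr2b and Fst above Fstl3 in both genotypes on this scale.

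**Figure D3:**
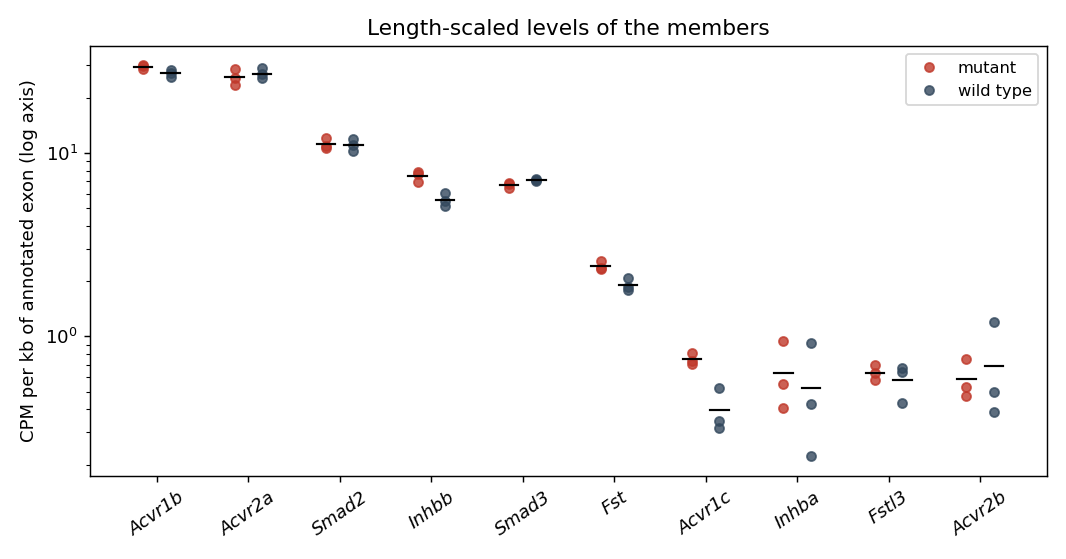
Level of each gene in CPM per kilobase of annotated exon, on a log axis, with 1 point per library and a bar at each group's mean. Acvr1b and Acvr2a lie near 27 in wild type, and Acvr1c, Inhba, Fstl3 and Acvr2b lie below 1.2 in every library.

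The rest of the superfamily was described from 5 lists. Smad7, Skil and Pmepa1 stand both among the Smad partners and among the genes known to respond to Smad2 and Smad3 in other cells. With each gene counted 1 time, the lists hold 70 further genes, of which 60 passed the filter. The 10 that did not, among them Nodal, Lefty1, Gdf1, Inhbc and Inhbe, had at most 7 reads in any library. Without the block 0 of the 60 passed in either direction, with 6 at an unadjusted p under 0.05 (1037 of all 14618), and DESeq2 also called 0. With the block 0 were higher and 2 lower, Wfikkn1 and Ppm1a, against 1.97% and 1.49% of all tested genes. Every mutant library lay above every wild-type library in 3 of the 60 and below in 5, where 7.42% and 6.09% of all tested genes did, so neither share stood far from that of all genes.

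Of 9 tested genes among other ligands, co-receptors and antagonists of the activin, nodal and GDF branch, 1 fell with the block and 8 did not pass, and the list median was −0.16. Wfikkn1, which encodes a secreted protein that binds and inhibits the GDF ligands myostatin and GDF11, had 9, 17 and 14 reads in mutant libraries, against 41, 31 and 22 reads in wild-type libraries. With the block it fell by 1.33 on the log2 scale (SE 0.31, edgeR adjusted p = 0.0319), from few reads in both groups, and without the block the adjusted p was 0.349. Lefty2, a nodal antagonist, had the largest difference of the list among genes of at least 1 in mean log2 CPM, at 1.37, 1.21 and 2.12 CPM in mutant libraries against 3.51, 1.55 and 1.91 CPM in wild-type libraries. The groups overlapped, and its log2 fold change of −0.58 (SE 0.37) did not pass (edgeR adjusted p = 0.823).

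Of 15 Smad partners 14 were tested, and 1 fell with the block while 13 did not pass, with a list median of −0.04. Ppm1a, a phosphatase that can remove the activating phosphates of Smad2 and Smad3, was at 107, 110 and 115 CPM in mutant libraries, against 130, 120 and 131 CPM in wild-type libraries. Every mutant library was below every wild-type library, and with the block Ppm1a fell by 0.20 on the log2 scale (SE 0.04, edgeR adjusted p = 0.0227), with an adjusted p of 0.454 without it. Tgif2, a Smad corepressor, had a log2 fold change of 0.28 (SE 0.11), with all mutant libraries above all wild-type libraries at 20.7 to 22.5 CPM in mutant and 15.4 to 19.4 CPM in wild type, and did not pass in either fit (edgeR adjusted p = 0.629 without the block, 0.0894 with it). In the same list Ski and Zfyve9 lay lower in every mutant library, with log2 fold changes of −0.12 and −0.14 that did not pass.

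Genes known to respond to Smad2 and Smad3 in other cells showed no call, with 0 of 10 past the threshold in both fits and a median of −0.08. Junb, a transcription factor gene that neuronal activity also induces, had the largest difference, at 5.14, 4.75 and 4.89 CPM in mutant libraries against 5.26, 8.74 and 7.95 CPM in wild-type libraries. Its log2 fold change of −0.57 (SE 0.20) had an edgeR adjusted p of 0.582 without the block and 0.0759 with it. Smad7 and Skil, which feed back on the pathway, had log2 fold changes of 0.03 (SE 0.11) and −0.03 (SE 0.13), and Pmepa1 one of 0.11 (SE 0.09).

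The TGF-beta and BMP branches also held no call, with 0 of 10 and 0 of 20 tested genes past the threshold in both fits and list medians of −0.02 and −0.02. Tgfb1, a TGF-beta ligand, had a log2 fold change of −0.27 (SE 0.25), with overlapping levels of 2.88 to 3.91 CPM in mutant libraries and 2.99 to 5.59 CPM in wild-type libraries. Tgfbr1, the type I receptor that shares Smad2 and Smad3 with the activin receptors, had a log2 fold change of 0.00 (95% interval −0.25 to 0.25). Bmpr1b, a BMP type I receptor, was at 9.52, 14.4 and 10.6 CPM in mutant libraries and 8.63, 9.47 and 8.87 CPM in wild-type libraries. Its groups were apart by 9.52 against 9.47 CPM, and its log2 fold change of 0.36 (SE 0.17) did not pass (edgeR adjusted p = 0.745 without the block, 0.128 with it).

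**Figure D4:**
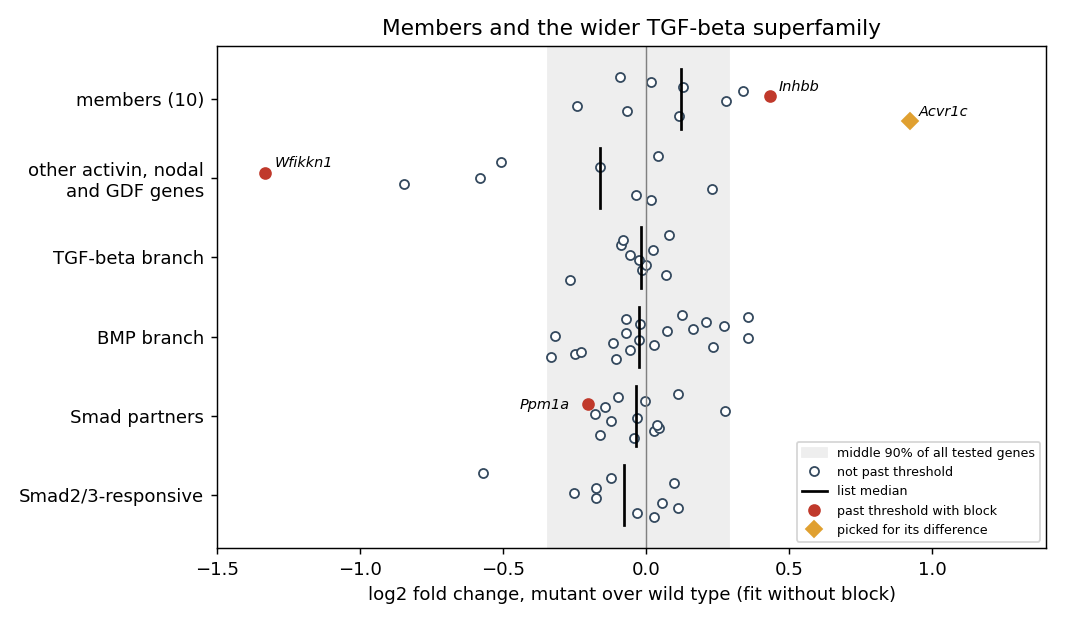
Log2 fold change, mutant over wild type, from the fit without the block, with 1 point per tested gene in the 10 activin signalling genes and 5 further lists. Filled circles passed the threshold in the fit with the block, the diamond is Acvr1c, which was picked for its difference, black bars are list medians and the grey band holds the middle 90% of all tested genes, from −0.34 to 0.29. The median of the 10 includes Acvr1c.

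The genes whose levels followed Acvr1c most closely over the 6 libraries were named as a description, out of 12850 tested genes of at least 1 in mean log2 CPM. The highest Pearson correlations of log2 CPM were those of Hsf1, Klhl9, Klhl25, Toe1 and Krcc1, from 0.990 to 0.997, and the lowest those of Sytl2, Slc16a6, Clgn, Bin1 and Eif1b, from −0.998 to −0.988. The 6 points share 2 genotypes and 3 library numbers. Acvr1c was picked for its difference between genotypes, so a strong correlation with it partly restates a difference between genotypes. In all the genes named as highest every mutant library lay above every wild-type library, and in all those named as lowest every mutant library lay below. Shared regulation was not tested. Hsf1, the heat shock transcription factor gene, was at 67.8, 69.5 and 68.3 CPM in mutant libraries and 58.3, 64.0 and 56.9 CPM in wild-type libraries, a much smaller difference than that of Acvr1c but with wild type 2 again the highest of its group. Sytl2, which encodes a vesicle-trafficking protein, was at 2.97, 2.88 and 3.02 CPM in mutant libraries and 4.69, 3.77 and 4.95 CPM in wild-type libraries. Among the other 9 activin signalling genes, the correlation with Acvr1c was 0.90 for Acvr1b, 0.86 for Inhbb and 0.83 for Fst, 0.58 for Inhba, 0.39 for Smad2 and 0.31 for Acvr2b, and −0.05, −0.40 and −0.63 for Fstl3, Acvr2a and Smad3. Acvr1b, Inhbb and Fst are also the genes of these 9 in which every mutant library lay above every wild-type library.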

How the data were processed

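Per the labels' protocols, libraries were prepared from total RNA of pooled neocortices with a stranded TruSeq kit. The table that the authors deposited holds unnormalized read counts by gene symbol. Reads were handled with HTSeq 0.5.3p9, Bowtie2 2.1.0, TopHat2 2.0.9 and CASAVA 1.8.2 on the build mm10, per the submitters' processing notes. Neither the annotation nor the strand setting is given there. Columns were assigned by library title, and 0 columns were left unused. Libraries of 1 genotype differed by more than sampling noise (chi-square divided by its degrees of freedom ran between 7.13 and 23.1).

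The members and gene lists were chosen with earlier results of these data known. Counts were tested for 14618 genes with edgeR 4.0.16 in R 4.3.3 (robust quasi-likelihood test, TMM scaling, default expression filter, two-sided, Benjamini-Hochberg adjustment over all tested genes, threshold 0.05). The fit had no block, and the library number as a block was the alternative. The labels do not say what a number marks. The 3 same-number correlations all passed the bound of 0.1, so libraries of 1 number were treated as pairs, a choice that rests on the data. Standard errors come from the F statistic. CPM use TMM-scaled library sizes, SD is over 3 libraries, and log2 CPM for pair ratios and correlations used a prior count of 2. DESeq2 1.42.0, RLE and upper-quartile scaling, other filters, and leaving out libraries or pairs were alternatives.

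Genes named outside the set were Tshz3, pathway genes called in either fit, the largest difference per list among genes of at least 1 in mean log2 CPM, and the 5 genes most and 5 least correlated with Acvr1c. Acvr1, Cytip, Inha, Bmpr2, Ski, Zfyve9, Tgfbr1, Smad7, Skil, Pmepa1, the overlapping genes and the cell type markers were added after their values were seen. Positions and exon lengths are from GENCODE M21 on GRCm38, the assembly that mm10 names, and promoter windows were found for 8 of the 10 members. The result of 1 cell type marker is not reported here. The precision of low genes is limited by their read counts.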

Additional observations from a re-analysis of the deposited data

How the results depend on the processing

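Alternatives were run in 18 settings; those without libraries of 1 number in both groups and with no block were added after seeing the data. Among all genes, 7 were called higher and 4 lower. DESeq2 called 59 and 43, upper-quartile scaling 9 and 8, no filter on low counts 11 and 9, and the replicate block 288 and 218. Leaving out 1 library gave 1 to 21 higher and 2 to 14 lower, the upper ends without wild type 2; with the block and without 1 pair, 141, 1119 and 35 higher and 154, 755 and 27 lower without pairs 1, 2 and 3. Without 1 pair and with no block there were 0 to 1 higher and 0 to 2 lower.

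Acvr1c was picked from this contrast and is left out of the calls given here for the activin signalling genes. No other gene of that set was called higher in the fit without the block or in any fit that left out 1 library. DESeq2, the replicate block, and the block without pair 1 or pair 2 called Inhbb higher and no other of them. The block without pair 3 called none of them. Each blocked fit without 1 pair has only 1 residual degree of freedom. None was called lower in any setting. Among the 60 further pathway genes the block gave 2 lower, with 0 to 5 higher and 0 to 3 lower when 1 pair was left out. The log2 difference of Acvr1c ranged from 0.79 to 1.17 and that of Inhbb from 0.38 to 0.49, with edgeR or DESeq2 adjusted p for Inhbb from 8.42e-05 to 1. The direction reversed without wild type 2 for Acvr2b (0.41) and Fstl3 (−0.043), and without both libraries 2 for Acvr2b (0.19 with the block, 0.18 without) and Fstl3 (−0.036 and −0.039). It reversed for Inhba without mutant 2 (−0.13) or wild type 1 (−0.089), and for Smad2 without mutant 1 (−0.037), wild type 3 (−0.035) or both libraries 1 (−0.039 with the block, −0.040 without). Over all fits that left out 1 library, the log2 difference ranged from −0.54 to 0.41 for Acvr2b, −0.13 to 0.98 for Inhba, −0.043 to 0.24 for Fstl3 and −0.037 to 0.074 for Smad2. The cause was not tested. The median of all genes stayed within −0.01 and 0.00. With 22 to 145 reads per library, Fstl3, Acvr2b and Inhba are limited by depth as well as by the spread between libraries.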
